A study of Mus musculus with 8 samples.

Results

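In all, 10 imprinted genes were followed through RNA-seq of germline stem (GS) cell lines: Peg3, Usp29, Mest, Copg2, Peg10, Sgce, Nnat, Plagl1, Impact and Zrsr1. They were chosen by name as genes of the Peg3, Mest and Peg10 loci and 4 further loci known for expression from the paternal copy, with Copg2 included as the overlapping neighbour of Mest, and they are 10 of the 31010 genes in the table. GS cells are cultures of spermatogonia that self-renew with GDNF and FGF2. The 8 lines came from F1 mice on the B6 background (B6 stands for C57BL/6), were labelled WT and received no treatment. There were 4 lines (29, 37, 44 and 45) from control-F1 mice born after natural mating, and 4 lines (11, 17, 20 and 21) from ICSI-F1 mice, born after intracytoplasmic sperm injection, in which a sperm is placed directly into the oocyte. Per the study's methods, the sperm injected came from green mice, which carry a ubiquitously expressed Egfp transgene, and whether the ICSI lines inherited it was not examined here. The study derived GS cells from CD9-sorted spermatogonia of mature testes to ask whether ICSI leaves a trace in the germline of the offspring. The labels do not tie lines to mice or litters, but the line numbers are among those by which the study's supplement lists its F1 mice for methylation assays. Litters are not given, so n counts lines and p-values measure the spread between lines.

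Imprinted genes are transcribed mainly from the copy inherited from one parent. At paternally expressed loci the maternal copy is silenced by DNA methylation laid down in the oocyte, and the zinc finger protein ZFP57 protects that methylation after fertilization by binding a short motif. Germ cells erase these marks, and male germ cells then leave both copies of such regions unmethylated. The values are sums over both copies of a gene, so they give its level and not its allele of origin.

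Most members lie in pairs or within a host gene, which matters for what a read can be assigned to. On chromosome 7 of GRCm38 (mm10), Peg3 (chr7:6703892-6730431, minus strand) and Usp29 (chr7:6730578-6967219, plus strand) point away from each other, with 147 bases between their starts. Peg10 (chr6:4747306-4760517, plus strand) and Sgce (chr6:4674350-4747207, minus strand) have the same layout, with starts 99 bases apart. Mest (chr6:30723547-30748465, plus strand) and Copg2 (chr6:30747554-30896794, minus strand) run towards each other, and 912 bases of exon overlap at their 3′ ends, which is 23.1% of the exon length of Mest and 17.8% of that of Copg2. Nnat (chr2:157560078-157562522, plus strand) lies inside the span of Blcap on the other strand, with 0 bases of shared exon. Zrsr1 (chr11:22972005-22976496, plus strand) lies inside Commd1 on the other strand, and 412 bases are exon of both. Plagl1 (chr10:13060504-13131694, plus strand) and Impact were taken as single genes. The library kit named in the labels is not the stranded kit of the methods, so whether reads carried strand is uncertain, and the values of Mest, Copg2 and Zrsr1 are uncertain to the extent of these overlaps.

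The start regions below show the sequence of the shared Peg3 and Usp29 start region and of promoters of Mest and Plagl1, which carry the ZFP57 hexamer TGCCGC. The sequences are from RefSeq on GRCm38.p6, plus strand, at chr7:6730420-6730582, chr6:30737800-30738049 and chr10:13090582-13090831. Capitals mark the hexamer, which reads GCGGCA here because it lies on the other strand.
Peg3-Usp29: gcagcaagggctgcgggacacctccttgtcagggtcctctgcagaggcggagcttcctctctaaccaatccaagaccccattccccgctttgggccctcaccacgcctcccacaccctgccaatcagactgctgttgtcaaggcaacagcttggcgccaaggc
Mest: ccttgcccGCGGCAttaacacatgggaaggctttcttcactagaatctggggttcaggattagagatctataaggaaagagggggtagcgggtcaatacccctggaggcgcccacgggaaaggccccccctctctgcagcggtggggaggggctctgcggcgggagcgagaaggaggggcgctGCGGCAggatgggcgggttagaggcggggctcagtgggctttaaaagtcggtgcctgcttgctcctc
Plagl1: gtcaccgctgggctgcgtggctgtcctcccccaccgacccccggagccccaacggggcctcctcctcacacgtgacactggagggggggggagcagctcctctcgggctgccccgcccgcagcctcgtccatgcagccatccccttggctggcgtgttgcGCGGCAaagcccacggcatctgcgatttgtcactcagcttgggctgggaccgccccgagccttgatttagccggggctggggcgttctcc
The Peg3 and Usp29 region holds 5 CG in 163 bases and no hexamer, the Mest window 14 CG and 2 hexamers in 250 bases, and the Plagl1 window 19 CG and 1 hexamer in 250 bases. The Mest window shown was picked for holding the most hexamers. Another Mest window, chr6:30733256-30733555, holds 8 CG and 0 hexamers in 300 bases. Promoter windows of 300 bases were given for 7 of the 10 genes, all but Peg10, Sgce and Impact. The hexamer, searched on both strands, was in a window of 4 of the 7 (Mest, Copg2, Nnat and Plagl1), and in 11.6% of all 32851 promoter windows. The YY1 motif GCCATNTT, searched likewise, was in no window of the 7 and in 6.05% of all windows. These matches describe the letters in the windows and say nothing of binding.

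Reads counted to genes numbered 24712383 to 44284532 per line, recovered from the steps of the FPKM values (fragments per kilobase of gene, scaled to library size by the authors). They are fewer than the sequenced reads that the study's methods give for each line. Line titles come in a hyphenated form (lines 29, 37, 11 and 17) and an unhyphenated one (44, 45, 20 and 21), 2 lines of each group in each form. The unhyphenated lines had more reads, 32360926 to 44284532 against 24712383 to 26667429, and the submitters' processing notes list other versions of cutadapt, STAR and HTSeq for them. The lines carried the germ cell markers of spermatogonia, with Ddx4 at 173 to 274 FPKM and Dazl at 257 to 420 FPKM. The Sertoli cell gene Amh was at 0.018 to 0.052 FPKM, but Sox9 was at 0.832 to 5.46 FPKM and Wt1 at 0.929 to 3.31 FPKM. The Leydig cell gene Cyp17a1 was listed at 0 in every line, but Star was at 0.594 to 1.77 FPKM. Summed, 5 Sertoli cell markers came to 3.60 to 7.36 FPKM and 5 Leydig cell markers to 0.669 to 1.89 FPKM. The summed level of 27 fibroblast markers ran from 353 to 1420 FPKM. In such bulk samples, fewer cells of a type and less RNA per cell cannot be told apart.

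The genes spanned a wide range of levels. Copg2 had the highest mean over the 8 lines, 32.8 FPKM, followed by Mest (14.4), Zrsr1 (8.55), Impact (7.37), Nnat (6.95), Peg10 (5.49), Peg3 (3.60), Plagl1 (2.64), Usp29 (0.681) and Sgce (0.364). FPKM is per base of a gene's merged exons, a length that ran from 1829 bases for Nnat to 18078 for Usp29. The order of genes therefore depends on the annotated length as well as on reads. Within a line Copg2 exceeded Mest, Mest exceeded Zrsr1 and Plagl1 exceeded Usp29 in 8 of 8 lines. Over the 8 lines the ranges of Plagl1 and Usp29 were apart, and those of every other pair of neighbours in that order overlapped. Zrsr1 was above Impact in 5 of 8 lines and Impact above Nnat in 4 of 8. Reads behind a value numbered 55 to 8377. The spread between lines, as a coefficient of variation, was 7.87% for Zrsr1 and up to 43.4% for Sgce. The largest counting error of any line was 1.92% for Copg2 and 13.5% for Sgce, and for each of the 10 genes the spread between lines was larger than the largest counting error.

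**Figure D1:**
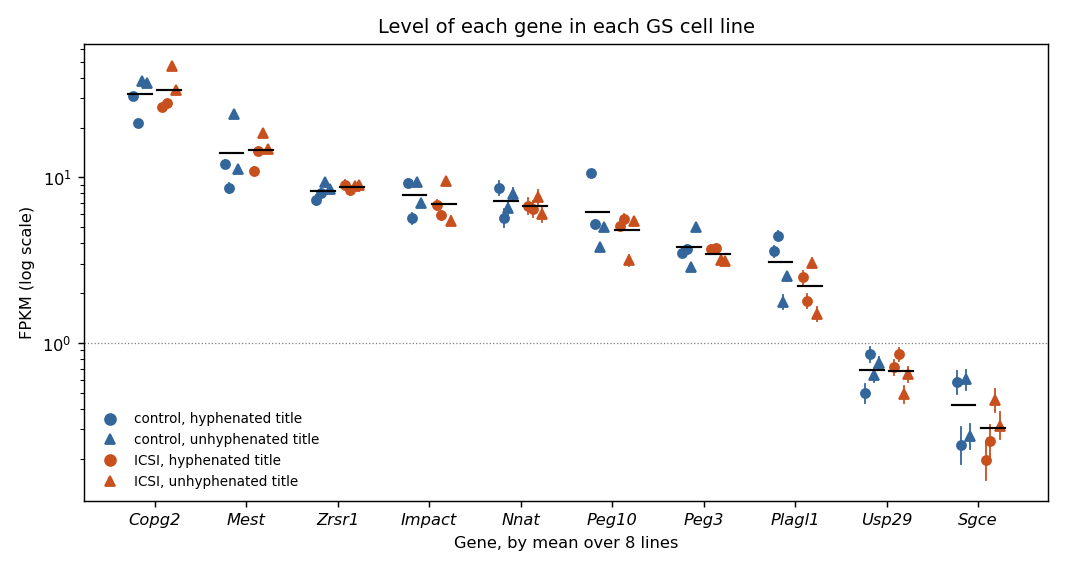
FPKM on a log axis of the 10 genes in 4 control lines (blue) and 4 ICSI lines (orange), with circles for hyphenated titles, triangles for unhyphenated titles, vertical bars for the 95% Poisson interval of the reads and black lines for group means. The groups overlap for every gene, from Copg2 at 21.2 to 46.8 FPKM down to Sgce at 0.197 to 0.601 FPKM, and the dotted line marks the filter of 1 FPKM.

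Peg3 encodes a large Kruppel-type zinc finger protein, and its divergent neighbour Usp29 encodes a ubiquitin-specific peptidase. Peg3 was at 3.48, 3.70, 2.89 and 5.01 FPKM in control lines 29, 37, 44 and 45, and at 3.67, 3.75, 3.16 and 3.14 FPKM in ICSI lines 11, 17, 20 and 21. The ICSI values all lay inside the control range. Controls averaged 3.77 ± 0.895 FPKM and the ICSI group 3.43 ± 0.326 FPKM (SD, n = 4 each). Usp29 was at 0.495, 0.854, 0.640 and 0.757 FPKM in the control lines and at 0.713, 0.854, 0.489 and 0.645 FPKM in the ICSI lines, in the same order of lines. Its groups overlapped almost completely, at means of 0.686 ± 0.155 and 0.675 ± 0.151 FPKM (SD, n = 4 each). From the same start region, Usp29 thus gave 0.142 to 0.231 times the FPKM of Peg3. Its X-linked relative Usp26 stood at 85.2 to 113 FPKM, above Usp29 in 8 of 8 lines.

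Mest encodes a protein with an alpha/beta hydrolase fold, and Copg2 a gamma subunit of the COPI coat that carries vesicles from the Golgi to the endoplasmic reticulum. Mest was at 12.0, 8.65, 24.3 and 11.3 FPKM in control lines 29, 37, 44 and 45, and at 11.0, 14.5, 18.5 and 14.9 FPKM in ICSI lines 11, 17, 20 and 21. Control lines 37 and 44 held the lowest and the highest value of all 8, so the ICSI values lay within the control range, at means of 14.0 ± 6.98 and 14.7 ± 3.08 FPKM (SD, n = 4 each). Copg2 was at 31.0, 21.2, 38.0 and 37.1 FPKM in the control lines and at 26.5, 28.3, 46.8 and 33.9 FPKM in the ICSI lines. The groups overlapped, at means of 31.8 ± 7.71 and 33.9 ± 9.21 FPKM (SD, n = 4 each), but the title forms did not: all unhyphenated lines were above all hyphenated lines. How many of all genes were set apart in this way was not counted, and 16.0% of genes tested were called by title form. The paralogue Copg1, which encodes the other gamma subunit, was at 17.0 to 22.0 FPKM and below Copg2 in 7 of 8 lines. The merged exon length behind these values was 11011 bases for Copg1 and 5121 for Copg2, so this order is of FPKM and not of reads.

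Peg10 derives from a retrotransposon and encodes Gag- and Pol-like proteins, and Sgce encodes epsilon-sarcoglycan, a membrane protein of the dystrophin-associated complex. Peg10 was at 10.6, 5.21, 3.77 and 5.03 FPKM in control lines 29, 37, 44 and 45, and at 5.08, 5.63, 3.16 and 5.43 FPKM in ICSI lines 11, 17, 20 and 21. Control line 29 stood above the other 7 lines, and the remaining values of the groups overlapped. Controls averaged 6.16 ± 3.04 FPKM and the ICSI group 4.82 ± 1.13 FPKM (SD, n = 4 each). Sgce was at 0.577, 0.242, 0.601 and 0.273 FPKM in the control lines and at 0.197, 0.254, 0.450 and 0.317 FPKM in the ICSI lines. Its values fell into a higher set, control lines 29 and 44 and ICSI line 20, and a lower set of 5 lines, with both groups in each. The group means of Sgce were 0.423 ± 0.192 and 0.305 ± 0.109 FPKM (SD, n = 4 each).

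The other 4 genes stand at loci of their own. Nnat encodes neuronatin, a small membrane proteolipid, and was at 8.59, 5.68, 6.51 and 7.99 FPKM in control lines 29, 37, 44 and 45 and at 6.76, 6.48, 7.61 and 5.98 FPKM in ICSI lines 11, 17, 20 and 21. All ICSI values lay within the control range. Plagl1, a zinc finger transcription factor linked to cell cycle arrest, was at 3.57, 4.45, 1.77 and 2.53 FPKM in the control lines and at 2.49, 1.79, 3.04 and 1.49 FPKM in the ICSI lines. Its control values were apart by title form, with both hyphenated controls above both unhyphenated controls. Impact, a regulator of the translational stress kinase GCN2, was at 9.28, 5.65, 9.44 and 6.97 FPKM in the control lines and at 6.80, 5.89, 9.47 and 5.49 FPKM in the ICSI lines. Each group held both low and high lines, and control lines 29 and 44 and ICSI line 20 were the high ones, as for Sgce. Zrsr1, a retrocopy of the splicing factor gene Zrsr2, was at 7.28, 7.995, 9.41 and 8.51 FPKM in the control lines and at 9.02, 8.36, 8.84 and 8.95 FPKM in the ICSI lines. The ICSI values of Zrsr1 spanned a narrow range inside that of the controls, at 8.79 ± 0.300 against 8.30 ± 0.898 FPKM (SD, n = 4 each). Zrsr2 itself was at 16.6 to 28.7 FPKM, above Zrsr1 in 8 of 8 lines.

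The main comparison asked whether any of these genes differed between ICSI-F1 and control-F1 lines. None was called. Differences below are on the log2(FPKM + 1) scale, which understates changes of low genes, and the test was limma across all genes that averaged 1 FPKM or more, with Benjamini-Hochberg adjusted p under 0.05 as the threshold. Of the 10 genes, 8 passed this filter and were tested, and 0 of 8 were called, against 0 of 12000 genes in all (0%). At an unadjusted p under 0.05 there were 0 of the 8 and 55 of the 12000, and with limma-voom on recovered reads 0 genes were called and 50 had such a p. With title form as a covariate in limma, 0 of 12000 genes were called and 140 had such a p. The SE of the Copg2 difference was then 0.14, against 0.22 in the main fit, whose intervals are given below. Plagl1 had the widest difference, -0.33 ± 0.23 (SE, limma), with a 95% interval of -0.86 to 0.20. Peg10 followed at -0.24 ± 0.27, with an interval of -0.84 to 0.37, and Impact at -0.16 ± 0.20, with -0.60 to 0.28. Mest was at 0.14 ± 0.28, with -0.48 to 0.76, and Copg2 at 0.086 ± 0.22, with -0.41 to 0.58. Zrsr1 had the narrowest interval of the tested genes, -0.16 to 0.32 around 0.079, and those of Nnat (-0.40 to 0.24) and Peg3 (-0.43 to 0.25) came next.

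Exact two-sided permutation tests over the 70 assignments of lines to groups, whose smallest possible p is 0.0286, gave p from 0.257 for Plagl1 to 0.886 for Usp29. Of the 8 tested genes, 3 were higher and 5 lower in ICSI lines, and their median difference was -0.085 against -0.013 for all genes. Usp29 and Sgce, both under the filter, differed by -0.0095 ± 0.10 and -0.12 ± 0.10 in the limma fit without a filter, where neither was called and 1 of 23964 genes was (0.00417%). These intervals leave room for changes of about the size of the spread between lines, and a p above the threshold does not show equal levels. The direction for Peg10 turned when control line 29 was left out (0.025), and that for Peg3 when control line 45 was (0.026).

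**Figure D2:**
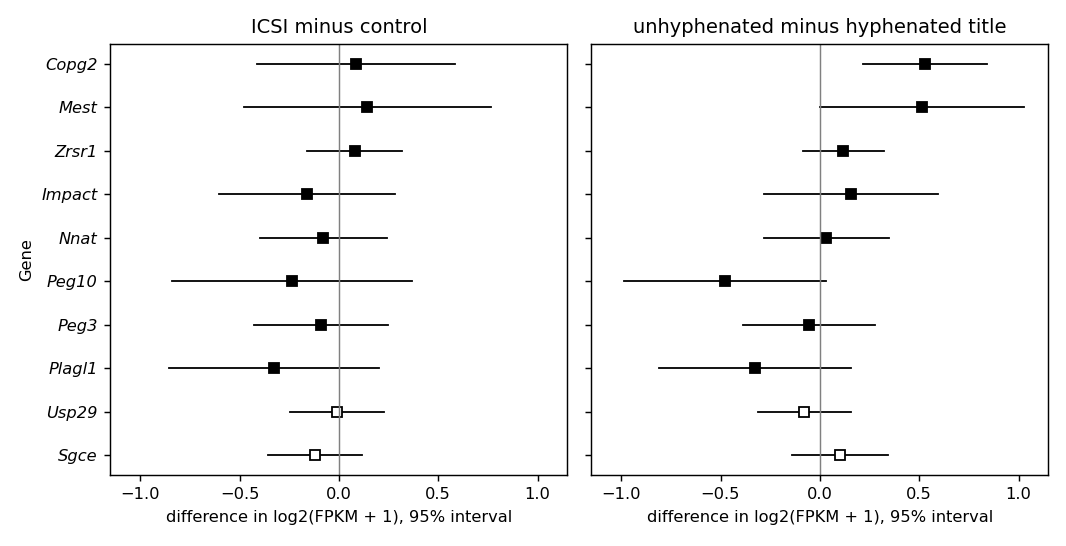
Differences in log2(FPKM + 1) with 95% limma intervals for the 10 genes, ICSI minus control on the left and unhyphenated minus hyphenated titles on the right; open squares are Usp29 and Sgce, taken from the fit without a filter. Every interval on the left includes 0, and on the right that of Copg2 (0.22 to 0.84) does not.

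The ICSI difference was also compared between the title forms, since each holds 2 lines of each group. The interaction was called for 0 of the 8 genes and 0 of 12000 (0%), with 147 genes and 0 of the 8 at an unadjusted p under 0.05, in limma. Without a filter it was called for 0 of 23964 genes (0%). Plagl1 came closest. Both hyphenated ICSI lines (2.49 and 1.79 FPKM) were below both hyphenated controls (3.57 and 4.45 FPKM), a difference of -0.68 on the log2 scale, while in the unhyphenated lines it was 0.023. The interaction was 0.70 ± 0.38 (SE), with an adjusted p of 1.0 in limma.

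Between the title forms, Copg2 was the one gene of the 8 that was called. It was at 21.2 to 31.0 FPKM in hyphenated lines and 33.9 to 46.8 FPKM in unhyphenated lines, a difference of 0.53 ± 0.14 on the log2 scale (SE, limma with group as covariate, adjusted p = 0.0362). This was 1 of 8 called, against 16.0% of all genes tested (1917 of 12000), so the share among these genes was near the background. Without a filter, 0 of the 10 were called against 5.24% of 23964 genes. The call for Copg2 held in 11 of 20 settings and ended without a filter (adjusted p = 0.0707, limma), with quantile normalization (0.0630) and with limma-voom (0.0613). It also ended when any one of control lines 37, 44 and 45 or ICSI lines 11, 17 and 20 was left out, with adjusted p up to 0.106. The difference stayed above 0 in all 20 settings, at 0.42 to 0.63.

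Mest, the convergent neighbour of Copg2, differed by 0.51 ± 0.23 in the same direction with adjusted p = 0.142 in limma, and by 0.28 without control line 44. With the fibroblast marker score as a further covariate it was 0.52 ± 0.14, with adjusted p = 0.0260, the one call for Mest in 20 settings, in a fit that called 27.2% of all genes (3266 of 12000). Peg10 differed by -0.48 ± 0.22 (adjusted p = 0.162), and by -0.26 without control line 29. Peg3, Nnat, Plagl1, Impact and Zrsr1 had adjusted p of 0.302 and above. Of the 10 spermatogonial markers, 10 were higher in unhyphenated lines and 7 were called higher, against 16.0% of all genes called in either direction. Their summed level was 685 to 827 FPKM in hyphenated lines and 980 to 1156 FPKM in unhyphenated lines. Title form, depth and this marker level moved together in these lines, as did the software versions in the submitters' notes. Their parts in the Copg2 difference cannot be told apart, and whether the versions really differed is uncertain. Copg1, the paralogue of Copg2, was at 21.1 ± 0.874 FPKM in hyphenated and 18.1 ± 0.854 FPKM in unhyphenated lines (SD, n = 4 each), in the opposite direction. Its difference of -0.21 ± 0.074 was not called in limma (adjusted p = 0.0839) and was called with limma-voom (adjusted p = 0.0302).

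GS cells grow on embryonic fibroblasts, which the study's methods remove by plating on gelatin, and the lines differed in the level of fibroblast markers. A score was taken as the mean log2(FPKM + 1) of the 25 fibroblast markers that passed the filter, none of them one of the 10 genes. It was 5.09, 3.56, 4.89 and 3.22 in control lines 29, 37, 44 and 45 and 3.61, 4.08, 4.50 and 3.67 in ICSI lines 11, 17, 20 and 21. The high lines were thus control lines 29 and 44 and ICSI line 20. The defining markers Col1a1, Col1a2, Col3a1, Postn, Pdgfra and Prrx1 were above 0 in every line. Of the 25 markers, 24 were lower in ICSI lines, with 0 of them at an unadjusted p under 0.05 and 0 called.

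The slope on the score was above 0 for Sgce, Mest, Impact, Copg2, Nnat and Peg10. It was below 0 for Peg3, Usp29, Plagl1 and Zrsr1. The limma intervals of Sgce, Mest, Impact and Copg2 lay above 0, and those of the other genes, Peg3 and Usp29 among them, included 0. Sgce and Usp29 were fitted without a filter, where the slope of Usp29 was -0.13 ± 0.064 (SE, limma, adjusted p = 0.415). With group and title form in the limma fit, 0 of 8 were called against 4.58% of 12000 genes, and 3 of the 8 had an unadjusted p under 0.05, beside 20.2% of all genes tested (2420 of 12000). The slope, in log2 units per unit of score, was 0.42 ± 0.11 for Mest (SE, adjusted p = 0.0681), 0.34 ± 0.10 for Impact (adjusted p = 0.111) and 0.20 ± 0.085 for Copg2 (adjusted p = 0.231). The slope of Copg2 was 0.37 without control line 45. That of Peg3 was -0.20 ± 0.093 (adjusted p = 0.273), and -0.030 without control line 45, the line with its highest level. The slope of Mest was called in 1 of 18 settings, without control line 29 (0.60 ± 0.10, adjusted p = 0.0253), and was 0.28 without control line 44. Line 29 had the highest score but a Mest level of 12.0 FPKM, well below the highest, whereas Mest was highest in line 44, whose score came second.

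Sgce was called only without a filter, where its low level is kept: its slope was 0.21 ± 0.029 (SE, limma, adjusted p = 0.0308), against 1.72% of 23964 genes called. The 3 lines with the highest score, control lines 29 and 44 and ICSI line 20, were also the 3 with the highest Sgce, 0.450 to 0.601 FPKM against 0.197 to 0.317 FPKM in the other 5. In fits chosen after seeing the data, the call held with limma-voom (adjusted p = 0.0430) and with a score of the 6 defining markers (adjusted p = 0.0375), and ended with a pseudocount of 0.1 (adjusted p = 0.147). It also ended when any one line was left out, with a slope of 0.19 to 0.21 and adjusted p of 0.0556 to 0.195. Sgcb, which encodes another sarcoglycan, was called in the main fit (0.40 ± 0.088, adjusted p = 0.0434, limma). Whether the fibroblasts themselves supplied these transcripts was not tested.

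**Figure D3:**
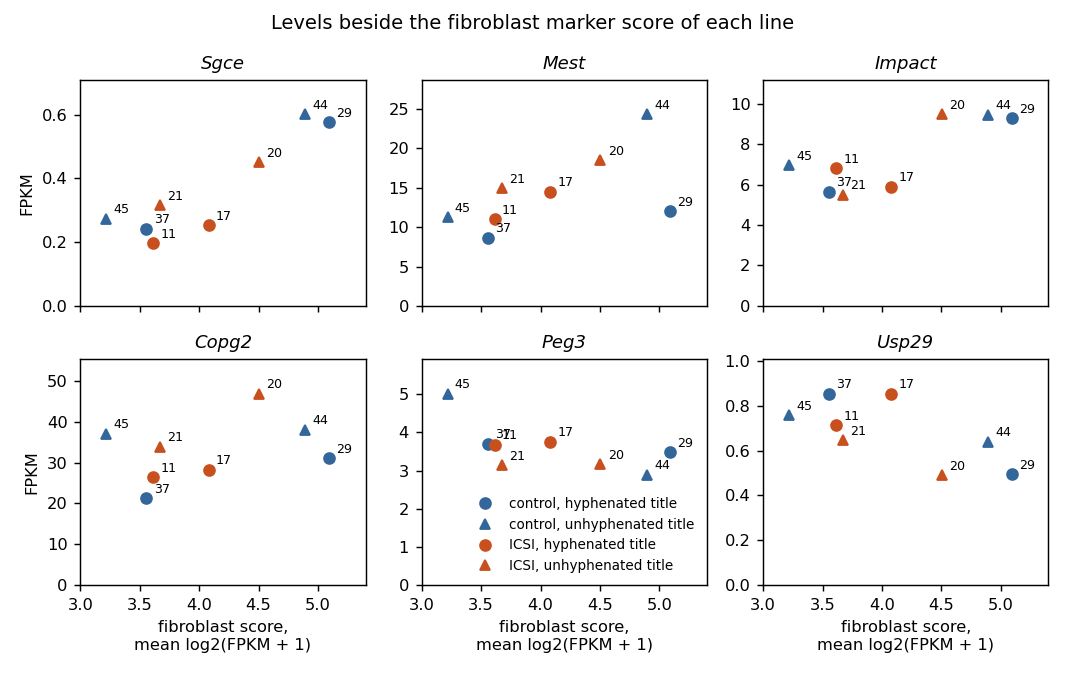
FPKM of 6 genes against the fibroblast marker score of each line (mean log2(FPKM + 1) of 25 markers), with line numbers, colours for groups and shapes for title forms. Sgce is highest in lines 29, 44 and 20, the lines with the highest score, Mest follows the score except in line 29, and Peg3 and Usp29 show no rise.

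The balance of genes that share a locus was compared as the ratio of their FPKM values in each line, since a ratio removes what raises both alike. Copg2 over Mest was lowest in control line 44 (1.56) and highest in control line 45 (3.29), and the 4 ICSI lines lay between, at 1.95 to 2.53. Peg10 over Sgce was 6.28 in control line 44 and 7.01 in ICSI line 20, against 17.1 to 25.8 in the other 6 lines. These 2 lines were low in Peg10 and high in Sgce, and both had a high fibroblast score, while control line 29, with the highest score, was at 18.4. Nnat over its host Blcap was 0.313 to 0.512, and Zrsr1 over its host Commd1 was 0.729 to 1.74, with groups that overlapped in both. In exact permutation tests of the log2 ratio of FPKM + 1, the raw p of the 5 ratios was 0.486 to 0.857 and the adjusted p was 0.857 for each. The difference between groups was -0.12 for Peg10 over Sgce and turned to 0.062 with a pseudocount of 0.1.

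**Figure D4:**
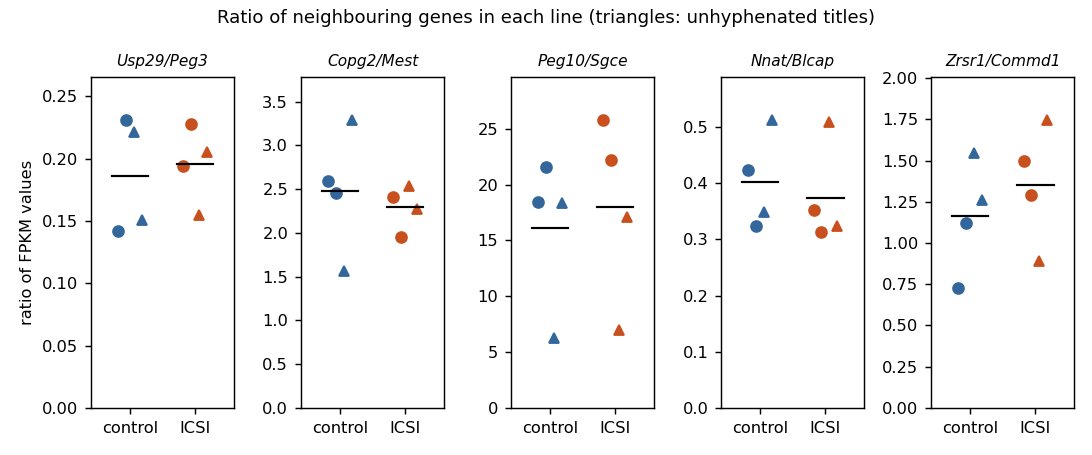
Ratio of FPKM values of 5 gene pairs in each line (linear axes from 0), control lines in blue, ICSI lines in orange, triangles for unhyphenated titles and black lines for group means. The groups overlap in each pair, and Peg10 over Sgce holds 2 low lines, at 6.28 and 7.01.

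Few genes around these loci, or related to them, were called in the same comparisons. Of 19 neighbours listed, 18 were in the table and 8 passed the filter, with means up to 18.2 FPKM. In limma 0 of the 8 were called between ICSI and control lines, by title form or with the fibroblast score, with 0, 2 and 2 at an unadjusted p under 0.05. Over all 12000 genes, 0.458%, 35.4% and 20.2% had such a p. With limma-voom 0 were called between ICSI and control lines, and Ppp1r9a was called by title form (adjusted p = 0.0402). The hosts Blcap (15.0 to 20.7 FPKM) and Commd1 (5.13 to 9.99 FPKM) were among them. Of 22 other paternally expressed genes, 21 were in the table, 1 of them listed at 0 in every line, and 11 were tested. Of these 11, 4 were higher and 7 lower in ICSI lines, with a median of -0.015, and 0 were called between ICSI and control lines, by title form or with the score, with 0, 2 and 5 at an unadjusted p under 0.05, to be read against the same shares of all genes. With limma-voom 0 of the 11 were called between groups or by title form. Of 12 paralogues, 7 were tested. In limma 0 of these were called between ICSI and control lines or by title form, with 0 and 3 at an unadjusted p under 0.05. With the fibroblast score 3 had such a p, and Sgcb and Plagl2 were called, against 4.58% of all 12000 genes called. The slope of Plagl2 was -0.34 ± 0.063 (limma, adjusted p = 0.0203). Plagl2 was at 10.4 to 18.3 FPKM, above Plagl1 in 8 of 8 lines.

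Below the filter, 2 genes near Peg10 and Sgce were called with the score, as Sgce was. In the fit without a filter, these were 2 of 18 neighbours (5 at an unadjusted p under 0.05), against 1.72% of 23964 genes called and 15.3% at such a p. They are Pon2 and Pon3, paraoxonase genes on the same stretch of chromosome 6. Pon3 was at 1.52, 0.308, 1.52 and 0.475 FPKM in control lines 29, 37, 44 and 45 and at 0.573, 0.639, 1.79 and 0.634 FPKM in ICSI lines 11, 17, 20 and 21. Its high lines were 29, 44 and 20, the same as for Sgce and for the score. Pon2 had the same 3 lines at the top, at 0.832 to 1.11 FPKM against 0.287 to 0.546 FPKM in the other 5. The slopes were 0.57 ± 0.085 for Pon3 (SE, limma, adjusted p = 0.0345) and 0.38 ± 0.052 for Pon2 (adjusted p = 0.0287). With limma-voom both were called (adjusted p = 0.00877 and 0.00740), while Pon3 was not with the 6 defining markers (0.0530) nor Pon2 with a pseudocount of 0.1 (0.0567). As for Sgce, neither was called once any one line was left out, with adjusted p of 0.0596 to 0.211. The slopes then ran from 0.51 to 0.64 for Pon3 and 0.34 to 0.43 for Pon2, and these fits called 0 to 143 genes in all. The part of fibroblasts was not tested. By title form, 1 of 18 neighbours was called without a filter, against 5.24% of all genes. It was Zim1, a zinc finger gene next to Peg3, at 0.853 ± 0.129 FPKM in hyphenated lines and 0.259 ± 0.126 FPKM in unhyphenated lines (SD, n = 4 each). Of the 20 other paternal genes above 0, 1 was called in that fit, Kcnq1ot1, a long noncoding RNA, at 0.165 ± 0.0199 and 0.0340 ± 0.0225 FPKM (SD, n = 4 each). Between ICSI and control lines the same fit called 0 of the 18 neighbours and 0 of the 20.

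For each tested gene, the genes with the most similar profile over the 8 lines were found by Pearson's r of log2(FPKM + 1), as a description over lines that share title form and culture. Efna1 (r = 0.994) and Cbr1 (r = 0.989) were closest to Copg2, and 321 genes had r over 0.9 with it. Smim22 (r = 0.989) and Zfp52 (r = 0.981) were closest to Mest, among 106 genes over 0.9. Impact was most like Selenow (r = 0.978) and Zc2hc1a (r = 0.973), and Plagl1 most like 1110038F14Rik and Nrf1 (r = 0.977 each). Peg10 was most like Clk4 (r = 0.954) and Tmem132a (r = 0.952), and Zrsr1 most like Mmp9 (r = 0.960) and Zfp988 (r = 0.955). Nnat was most like Suox (r = 0.957) and Hoxb4 (r = 0.917), with 7 genes over 0.9. Peg3 stood most alone, with Fam193a (r = 0.949) and Rgp1 (r = 0.934) the 2 genes over 0.9.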

How the data were processed

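RNA-seq was read from 1 table of 31010 genes with 8 columns of FPKM values, 1 per line. The authors trimmed reads with cutadapt, mapped them to mm10 with STAR and the GENCODE M25 annotation, counted them with htseq-count and deposited FPKM values. The submitters' processing notes list cutadapt 3.4, STAR 2.7.9a, HTSeq 0.13.5 and DESeq2 1.30.1 for the lines with hyphenated titles, and cutadapt 1.16, STAR 2.6.0c, HTSeq 0.11.2 and DESeq2 1.22.2 for those with unhyphenated titles. The study's methods name only the first set, for all 8 lines. The table's 2 columns of the authors' own comparison (log2 fold change and adjusted p) were not used.

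The 10 genes and all gene lists were chosen with earlier results of these data known. Whole reads (within 0.001 read) were recovered from the FPKM steps for 23964 of 23964 genes above 0, of which 5 needed the annotated length, and numbered 24712383 to 44284532 per line. For a 1-kb gene, a single read gave 0.0227 to 0.0401 FPKM. Poisson intervals cover counting error only. Gene positions came from GENCODE M21 on the same assembly, in which 30946 identifiers were found; the length behind the values of Peg3 (13616 bases) differs from its exon length there (13324 bases).

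The 12000 genes that averaged 1 FPKM or more were tested with limma 3.58.1 in R 4.3.3 (lmFit, eBayes with trend, two-sided, Benjamini-Hochberg over all genes tested, threshold 0.05) on log2(FPKM + 1). The study's methods state no covariate, so group was the only term for ICSI against control. Group was a covariate for title form, and group and form for the fibroblast score. Single genes and ratios had exact permutation tests, with adjustment over the 5 ratios. Named genes were the 10 members, tested neighbours and other paternal genes that were called, both hosts, Copg1, Zrsr2, Plagl2 and called paralogues, and the 2 most similar genes of each tested member. Marker genes, Usp26, and the neighbours and other paternal genes called in other fits (Pon2, Pon3, Zim1, Kcnq1ot1, Ppp1r9a) were added after their values were seen. Alternatives changed the pseudocount, filter, scaling, covariates, trend, test and lines. The scripts were tested on simulated data.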

Additional observations from a re-analysis of the deposited data

How the results depend on the processing

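Leaving out each line in turn, ICSI against control gave 0 genes and 0 of the 10 genes called throughout, and without a filter 1 gene was called, Gm42745 (named after its value was seen; -0.26 ± 0.022, SE), not one of the 10. That call ended with title form as covariate, where 0 of 23964 genes were called without a filter. By title form the 1917 genes called became 1255 without a filter, 3266 with the fibroblast score as covariate, and 210 to 2691 with a line left out (210 without ICSI line 11). The share of calls that were higher in unhyphenated lines also moved, from 1226 higher and 691 lower to 1001 and 970 with quantile normalization and 833 and 946 with limma-voom. The 1 of the 8 tested members called by title form became 0 of the 10 without a filter. Of the 8, 0 were called with quantile normalization and with limma-voom, 2 with the fibroblast score, and 0 to 1 with a line left out. By fibroblast score, the 0 called became 1 without a filter and 0 to 1 with a line left out. The Sgce slope on that score was 0.54 ± 0.15 with a pseudocount of 0.1, where log2 values of low genes span more, and 0.19 to 0.21 with a line left out.

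With a line left out, the ICSI minus control difference ran from -0.18 to 0.026 for Peg3, -0.066 to 0.046 for Usp29, -0.038 to 0.43 for Mest, -0.090 to 0.19 for Copg2, -0.40 to 0.025 for Peg10 and -0.17 to 0.0029 for Nnat, so the direction of these 6 depended on single lines. It kept its direction for Sgce (-0.18 to -0.059), Plagl1 (-0.50 to -0.17), Impact (-0.30 to -0.071) and Zrsr1 (0.024 to 0.13). The log2 ratios ran from -0.014 to 0.16 for Usp29 over Peg3, -0.25 to 0.091 for Copg2 over Mest, -0.34 to 0.092 for Peg10 over Sgce, -0.24 to 0.016 for Nnat over Blcap and 0.013 to 0.36 for Zrsr1 over Commd1. Peg10 over Sgce also turned with a pseudocount of 0.1 (0.062). Other settings changed no direction of these levels and ratios, and the cause of the changes was not tested. Sgce rests on 55 to 209 reads per line. Rescaling to TPM moved the Sgce difference from -0.12 to -0.25, and a pseudocount of 0.1 to -0.33. Quantile, fibroblast score covariate and voom settings were not run for Usp29 and Sgce between ICSI and control lines. Title form as covariate does not apply to its own interaction. No paired analysis was possible because the groups share no line numbers.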
